A study of Mus musculus with 18 samples.

Results

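Acute-phase and NF-κB inflammatory genes were followed in cultured mouse embryonic fibroblasts, with and without the growth factor TGF-β1. The set holds 10 genes: Saa3, Lcn2, Ptx3, C3, Il1rn, Il33, Il1rl1, Nfkbia, Tnfaip3 and Olr1. They were found by symbol: every probe set of the array that the annotation table gives to a single member gene was taken, and each gene is led by its brightest probe set by the mean over the arrays. Of the 10 genes, 8 had such a probe set, 16 probe sets in all out of 45101 on the array. C3 and Il1rl1 are not analysed here. A gene was tested where 3 or more arrays had it above their 40th percentile. The test took in 13679 of 18194 genes, and 7 of these are members. Lcn2 lay below that level on all 18.

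The cells were primary fibroblasts of 14-day embryos, grown from the body without head and liver, and each array measured 1 culture. The cultures came from 3 embryos labelled knock-out for the transcription factor NFI-C (gene Nfic) and from 3 wild-type embryos. Each embryo gave 3 cultures, one kept untreated, one given TGF-β1 at 12.5 ng/ml for 1 h and one for 10 h, after 4 to 6 h in medium with albumin and an insulin, transferrin and selenium mix. This made 6 groups of 3 cultures. The sources used here do not describe the knock-out allele or the strain, and untreated cultures were not labelled with a waiting time of 10 h.

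Nfic itself read 9.89 to 10.72 on the 9 arrays labelled knock-out and 10.19 to 10.77 on the 9 wild-type arrays (log2, brightest probe set). Those ranges overlapped. No source used here says whether this probe set lies in the deleted part of the gene, so the value checks nothing, and knock-out below means labelled knock-out. The mean of 11 fibroblast markers was 11.20 to 12.07 over the 18 cultures. The mean of the macrophage markers ran from 7.52 to 10.02. The means of the mast cell, endothelial and epithelial markers lay between 3.73 and 5.14, near the array medians of 4.74 to 4.81; levels of different probe sets are not compared. In such bulk cultures fewer cells of a type and less RNA per cell cannot be told apart.

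NF-κB is a transcription factor that waits in the cytoplasm, held there by inhibitor proteins. Signals from receptors of the IL-1, TNF and Toll-like families activate a kinase that has the inhibitor destroyed, NF-κB enters the nucleus, and it switches on genes of inflammation along with its own brakes. Nfkbia, which encodes the inhibitor IκBα, and Tnfaip3, which encodes the ubiquitin-editing enzyme A20, are such brakes. Saa3 (a serum amyloid A made outside the liver), Lcn2 (lipocalin 2, which binds bacterial siderophores), Ptx3 (a long pentraxin of innate defence) and C3 (the central complement component) belong to the acute-phase and defence proteins. Il1rn encodes the IL-1 receptor antagonist, Il33 an alarmin cytokine, Il1rl1 its receptor ST2, and Olr1 the LOX-1 receptor for oxidized low-density lipoprotein.

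The kB motif, the DNA letters that NF-κB binds, was searched on both strands in the 250 bases before each start of a member in RefSeq (GRCm38.p6). All 10 had an entry, and a gene with several starts counted if any of them had a match. It was found in 2 of 10, Nfkbia and Tnfaip3, against 4.46% of 27025 genes. Both promoters are shown because they hold the motif. Each is given 5′ to 3′ on the minus strand of the genome, with the kB matches in capitals. The Nfkbia stretch is chr12:55492648-55492897 and its match GGAAATTCCC begins 29 bases before the start. The Tnfaip3 stretch is chr10:19015411-19015660, with GGGACACCCC and GGAAATCCCC beginning 125 and 12 bases before the start. Tnfaip3 has another start in RefSeq, and the stretch before it (chr10:19011964-19012213) held no kB match.
Nfkbia: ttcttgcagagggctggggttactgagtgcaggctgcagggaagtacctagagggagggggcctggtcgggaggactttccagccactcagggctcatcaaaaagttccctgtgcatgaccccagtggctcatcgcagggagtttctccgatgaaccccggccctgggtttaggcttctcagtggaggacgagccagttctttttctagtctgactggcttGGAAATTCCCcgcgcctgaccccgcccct
Tnfaip3: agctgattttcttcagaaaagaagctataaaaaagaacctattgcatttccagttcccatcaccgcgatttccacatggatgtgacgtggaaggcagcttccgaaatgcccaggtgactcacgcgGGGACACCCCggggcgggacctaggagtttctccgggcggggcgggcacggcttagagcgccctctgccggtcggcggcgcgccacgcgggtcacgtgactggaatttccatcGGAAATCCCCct

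Olr1, the member with the steepest response to TGF-β1 below, had other motifs. The SMAD element CAGACA, whose letters SMAD proteins can bind, was in its promoter and in no other of the 10, against 19.3% of genes. The AP-1 site TGACTCA was in Olr1, Il1rn and Tnfaip3, against 5.16% of genes, though not before every start of Il1rn and Tnfaip3. The palindromic NFI site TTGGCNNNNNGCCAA was in none, against 0.0444%. All were searched on both strands, and no matches overlapped in the stretches shown. The stretch chr6:129507166-129507415, on the minus strand, is shown with both SMAD elements (reading TGTCTG on this strand) and the AP-1 site (TGAGTCA) in capitals. A match describes these letters and is not evidence of binding.
Olr1: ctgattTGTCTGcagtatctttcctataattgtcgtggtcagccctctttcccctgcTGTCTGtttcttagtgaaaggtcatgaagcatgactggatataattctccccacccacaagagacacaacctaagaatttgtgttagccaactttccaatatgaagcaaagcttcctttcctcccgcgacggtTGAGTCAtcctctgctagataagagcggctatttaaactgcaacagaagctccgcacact

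Several cultures stood apart, which affects most of the values that follow. On the 10 h array of knock-out embryo 1, 53 of the tested genes lay more than 1 log2 unit above every other array, and 28 lay more than 2 above. On each of the other 17 arrays this held for at most 1 gene at the smaller step. On the 10 h array of wild-type embryo 2, 55 genes lay more than 1 below every other array. Deviations from the group mean, correlated over genes between the 10 h and the untreated culture of an embryo, gave 0.282 to 0.388 in the knock-out embryos and 0.488 in wild-type embryo 1, but -0.06 and -0.20 in wild-type embryos 2 and 3. Changes at 10 h within wild-type embryos 2 and 3 therefore rest on the labels alone. Statements below that groups separate or do not overlap describe 3 against 3 cultures. The share of all tested genes that separated in the same way was not counted, so such a statement has no background beside it.

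Saa3 led that first list. Its value of 10.55 in the 10 h culture of knock-out embryo 1 was 5.37 above the highest of the other 17, a 41.3-fold excess and the first in rank of 13679 genes. The genes next in rank, named after their values were seen, were Acod1 (itaconate synthesis, 5.14 above), Clec4e (a pattern receptor, 4.62), the chemokine genes Cxcl10 (4.30) and Ccl2 (4.22), and Il1b (4.05), which encodes IL-1β. Tnfaip3 ranked 10th with 2.89 above, next to Tnf with 2.81. Nfkbia ranked 43rd with 1.32 above, and Olr1 116th with 0.49.
Il1rn, Il33 and Ptx3 lay 0.62, 1.37 and 1.59 below the highest other array, which was an untreated one for each. These genes were lower at 10 h, so this measure could not show them high there. Among the 10 h cultures this one was the highest for each of them. Ptx3 read 9.29 against 5.45 to 8.03 in the others, Il1rn 9.39 against 7.89 to 8.82, and Il33 4.65 against 4.13 to 4.51.

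**Figure D1:**
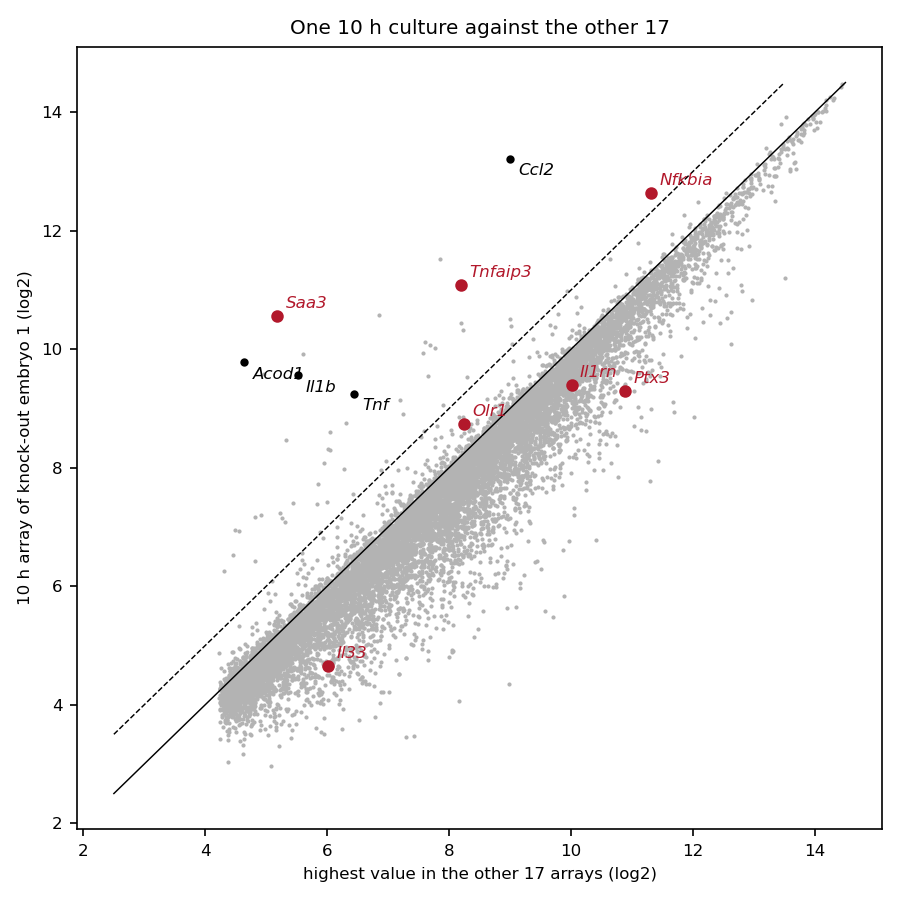
Each grey point is 1 of 13679 tested genes: the value on the 10 h array of knock-out embryo 1 (vertical, log2) against the highest value among the other 17 arrays (horizontal, log2). The solid line marks equal values and the dashed line an excess of 1. Saa3 lies 5.37 above the solid line, Tnfaip3 2.89 and Nfkbia 1.32, while Ptx3, Il1rn and Il33 lie below it.

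Genes of the NF-κB, IL-1, TNF and Toll-like receptor lists were often highest in the same culture. Of 21 tested NF-κB target genes 14 had their highest value of all 18 arrays there, 9 of them by more than 1. Of 18 NF-κB subunits, inhibitors and kinases the number was 11, 4 of them by more than 1, and of 22 genes of IL-1, TNF and Toll-like receptor signalling it was 8, again 4 by more than 1. Of 21 acute-phase and complement genes 6 were highest there, 0 of them by more than 1. Of 10 scavenger receptors and pentraxin partners 0 were highest there. Over all tested genes 6.91% were highest there, 0.387% by more than 1. None of 18 macrophage markers and none of 11 fibroblast markers had its highest value there. Among the knock-out cultures at 10 h it was nevertheless the one with the most macrophage marker RNA: the marker mean was 8.91 there, against 7.52 and 8.06 in embryos 2 and 3, and the markers lay a median 1.22 above those cultures, where all tested genes lay at -0.01. Within knock-out embryo 1 that mean was 9.32 untreated, 9.12 at 1 h and 8.91 at 10 h. Wild-type embryo 1 had a higher macrophage mean, 10.02, 9.88 and 9.75 in that order, and its Saa3 read 5.18 untreated, 4.99 at 1 h and 5.18 at 10 h.

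The untreated culture of knock-out embryo 1 also differed from its peers. Among 13679 genes, Tnfaip3 and Nfkbia had the largest excess over the other 5 untreated cultures, 1.15 and 0.86. Its Saa3 did not, at 0.04 below the highest of them. The embryo is therefore named wherever its values decide a result. A fit without its 10 h array alone keeps this high untreated culture, so values without all 3 of its cultures are given too where they differ.

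Nfkbia passed no test, and its values separated only at 1 h in wild type. In knock-out embryos 1, 2 and 3 it read 11.31, 10.01 and 10.22 untreated, 10.95, 10.44 and 10.75 at 1 h, and 12.64, 10.16 and 10.32 at 10 h. In wild-type embryos 1, 2 and 3 it read 10.45, 10.00 and 10.27 untreated, 10.99, 10.54 and 10.97 at 1 h, and 10.49, 10.42 and 10.33 at 10 h. At 1 h the values of all 3 wild-type embryos lay above all untreated wild-type ones. In knock-out cells embryo 1 was lower at 1 h than untreated, and embryos 2 and 3 were higher. The other 4 probe sets of Nfkbia showed that same pattern at 1 h in both genotypes, and all 5 peaked in the 10 h culture of knock-out embryo 1, by 1.33 to 2.08 over the next array.

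The 1 h difference of Nfkbia was 0.20 ± 0.48 in knock-out cells and 0.59 ± 0.48 in wild-type cells (log2 ± SE, n = 3 each; limma adjusted p = 1 and 0.947). Neither passed. The spread that limma shares over groups was widened by knock-out embryo 1: without that embryo the differences were 0.48 ± 0.18 and 0.59 ± 0.15, with unadjusted p of 0.01952 and 0.001474 and adjusted p of 1 and 0.1639. At 10 h the difference was 0.53 ± 0.48 in knock-out cells (adjusted p = 0.4345) and 0.17 ± 0.48 in wild-type cells (adjusted p = 0.8019). The knock-out value was -0.27 ± 0.29 without the 10 h array of knock-out embryo 1 but 0.13 ± 0.18 without all cultures of that embryo, and in knock-out embryos 2 and 3 themselves Nfkbia was 0.16 and 0.10 above untreated.

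Tnfaip3 rose at 10 h in both genotypes. Knock-out embryos 1, 2 and 3 read 7.43, 6.26 and 6.28 untreated, 6.90, 6.61 and 6.68 at 1 h, and 11.08, 7.96 and 7.80 at 10 h. Wild-type embryos 1, 2 and 3 read 6.22, 6.15 and 6.19 untreated, 6.82, 6.54 and 6.78 at 1 h, and 8.16, 8.19 and 7.78 at 10 h. The 10 h and untreated groups did not overlap in either genotype. The 1 h cultures of wild type also lay above all untreated cultures of wild type. The difference there was 0.52 ± 0.58 and did not pass (limma adjusted p = 0.9988). On the dimmer probe set of Tnfaip3 the 1 h and untreated cultures of wild type overlapped, and wild-type embryo 2 read 4.74 at 1 h and 4.87 untreated.

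The 10 h difference of Tnfaip3 was 2.29 ± 0.58 in knock-out cells (4.89-fold, adjusted p = 0.006207) and 1.85 ± 0.58 in wild-type cells (3.61-fold, adjusted p = 0.0224). The knock-out difference was 1.23 ± 0.26 without the 10 h array of knock-out embryo 1 (adjusted p = 0.002312), smaller by more than 1.5 times, and 1.61 ± 0.14 without all cultures of that embryo. The second probe set changed by 1.67 in knock-out cells (adjusted p = 0.03275), and in wild-type cells it was 0.89 above untreated without passing (adjusted p = 0.2464). Without the 10 h array of wild-type embryo 2, the wild-type call of the leading probe set was lost (1.78 ± 0.68, adjusted p = 0.06218). It was also lost with all arrays of wild-type embryo 1, 2 or 3 left out, with adjusted p of 0.1135, 0.1282 and 0.08815.

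Across cultures the brakes of NF-κB varied together. The deviations of Tnfaip3 and Nfkbia from their group means correlated at 0.97 over the 18 arrays and at 0.90 over the 17 without the 10 h array of knock-out embryo 1. These points share embryos and their 6 group means, so the value is a description. The 17 arrays still hold the untreated culture of knock-out embryo 1. Its Tnfaip3 and Nfkbia lay 1.15 and 0.86 above the highest other untreated culture, so both values lean on that embryo. A value without all of its cultures is not given here. At 10 h Tnfaip3 lay well above its untreated level in every culture. On its leading probe set Nfkbia was within 0.42 of its untreated level in all but the 10 h culture of knock-out embryo 1. On its other probe sets the largest 10 h change outside that culture was 0.63, in knock-out embryo 2.

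**Figure D2:**
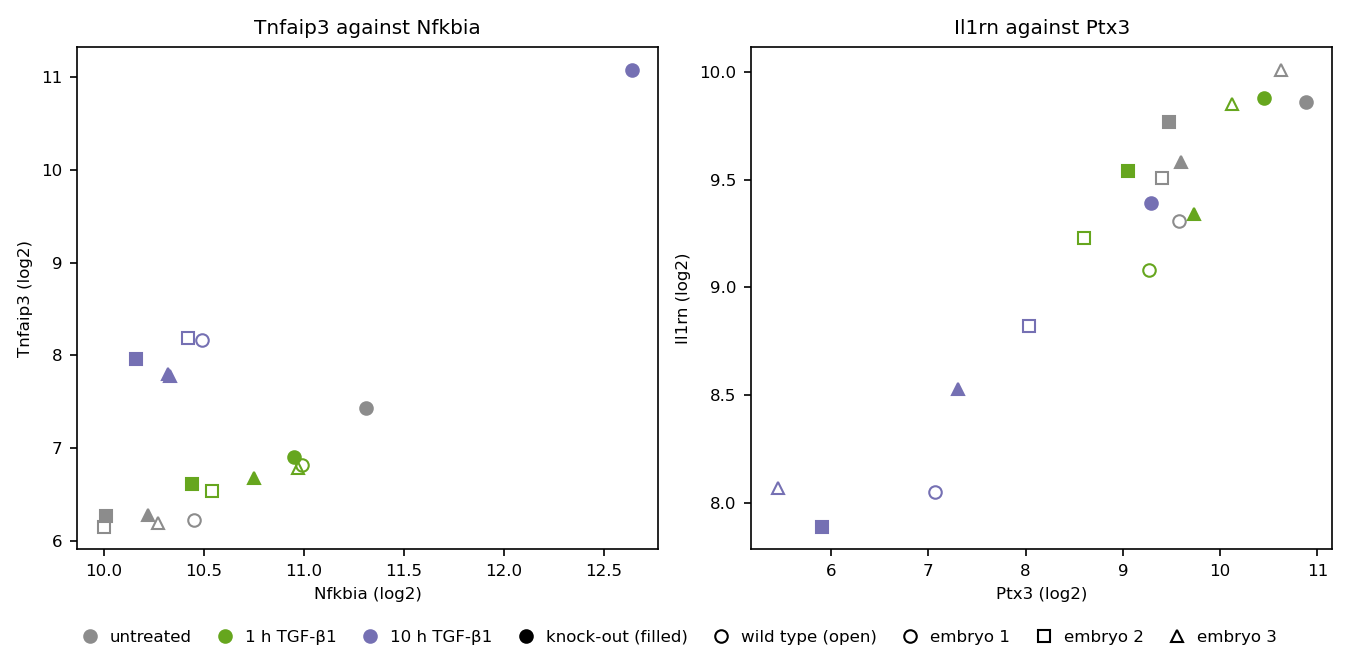
Left, Tnfaip3 against Nfkbia in the 18 cultures; right, Il1rn against Ptx3 (all log2). Filled marks are knock-out and open marks wild type, colours are treatments and shapes embryos. The 10 h culture of knock-out embryo 1 sits alone at the upper right on the left (12.64, 11.08), and on the right the 10 h cultures run down to 5.45 for Ptx3 and 7.89 for Il1rn.

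Among the acute-phase genes Saa3 moved in 1 culture only and passed no test. At 10 h it read 10.55, 4.84 and 4.65 in knock-out embryos 1, 2 and 3, against 5.14, 4.79 and 4.86 in their untreated cultures. Wild-type embryos 1, 2 and 3 had 5.18, 4.77 and 4.99 at 10 h, against 5.18, 4.80 and 4.69 untreated. The 6 cultures of the 1 h groups lay between 4.64 and 4.99. The 10 h change was 42.7-fold in knock-out embryo 1 and 1.04-fold and 0.87-fold in knock-out embryos 2 and 3.

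The fitted 10 h difference of Saa3 was 1.75 ± 0.99 in knock-out cells (adjusted p = 0.1922) and 0.09 ± 0.99 in wild-type cells (adjusted p = 0.9526). Without the 10 h array of knock-out embryo 1 the knock-out value was -0.18 ± 0.16 (adjusted p = 0.4283), and without all cultures of that embryo it was -0.08 ± 0.16. The SD of Saa3 within groups was 1.38 over the 18 arrays, against 0.16 for the median gene, and 0.18 over the 17 others, where the median gene had 0.15.

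Lcn2 was dim everywhere, and its values lie where the array hardly resolves differences. At 10 h it read 4.11, 3.51 and 3.44 in knock-out embryos 1, 2 and 3, against 3.24, 3.21 and 3.09 untreated. In wild type it read 3.19, 3.20 and 3.15 at 10 h and 3.06, 3.15 and 3.16 untreated. The knock-out 10 h cultures were the 3 highest of the 18 and overlapped neither the untreated knock-out nor the wild-type cultures. In a fit without the filter on dim genes the knock-out 10 h difference was 0.51 ± 0.13 (adjusted p = 0.007064). The knock-out minus wild-type difference at 10 h was also 0.51 but did not pass (adjusted p = 0.6078).

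Ptx3 fell steeply at 10 h in both genotypes, with wide differences between cultures. In knock-out embryos 1, 2 and 3 it read 10.88, 9.48 and 9.60 untreated, 10.45, 9.05 and 9.73 at 1 h, and 9.29, 5.91 and 7.30 at 10 h. In wild-type embryos 1, 2 and 3 it read 9.58, 9.40 and 10.63 untreated, 9.27, 8.60 and 10.12 at 1 h, and 7.07, 8.03 and 5.45 at 10 h. Each 10 h culture lay below every untreated culture of its genotype. The drop in single embryos was between 1.59 and 3.57 in knock-out and between 1.37 and 5.18 in wild type.

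The 10 h difference of Ptx3 was -2.49 ± 0.76 in knock-out cells (5.60-fold lower, adjusted p = 0.01806) and -3.02 ± 0.76 in wild-type cells (8.13-fold lower, adjusted p = 0.005998). The knock-out value was -3.38 ± 0.70 without the 10 h array of knock-out embryo 1 (adjusted p = 0.002033). It was -2.93 ± 0.73 without all cultures of that embryo (adjusted p = 0.01122). Single embryos decided some calls: without knock-out embryo 2 the knock-out value was -1.94 (adjusted p = 0.1008), without knock-out embryo 3 it was -2.58 (adjusted p = 0.09074), and without wild-type embryo 3 the wild-type value was -1.94 (adjusted p = 0.1099). The dimmer second probe set fell in both genotypes, by 1.24 in knock-out cells (adjusted p = 4.574e-05) and by 1.25 in wild-type cells (adjusted p = 4.771e-05). The within-group SD of Ptx3, 1.06, was at the 99.8th percentile of tested genes and stayed at the 99.6th without the 10 h array of knock-out embryo 1.

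Il1rn fell with Ptx3. In knock-out embryos 1, 2 and 3 it read 9.86, 9.77 and 9.58 untreated, 9.88, 9.54 and 9.34 at 1 h, and 9.39, 7.89 and 8.53 at 10 h. In wild-type embryos 1, 2 and 3 it read 9.31, 9.51 and 10.01 untreated, 9.08, 9.23 and 9.85 at 1 h, and 8.05, 8.82 and 8.07 at 10 h. The 10 h cultures lay below the untreated ones in both genotypes, nearest in knock-out embryo 1.

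The 10 h difference of Il1rn was -1.13 ± 0.32 in knock-out cells (2.20-fold lower, adjusted p = 0.01127) and -1.30 ± 0.32 in wild-type cells (2.46-fold lower, adjusted p = 0.005091). Of its other probe sets, one fell in both genotypes, by 1.30 in knock-out and 1.41 in wild type. For the other the values were -0.80 in knock-out cells (adjusted p = 0.1458) and -1.02 in wild-type cells (adjusted p = 0.06427). Without the 10 h array of knock-out embryo 1 the leading probe set differed by -1.53 ± 0.29 in knock-out cells (adjusted p = 0.0009218). Without all cultures of that embryo it differed by -1.47 ± 0.32 (adjusted p = 0.005191). The call of the leading probe set was lost without knock-out embryo 2 (-0.76, adjusted p = 0.1366), without knock-out embryo 3 (-1.18, adjusted p = 0.06322) and, in wild type, without wild-type embryo 3 (-0.98, adjusted p = 0.07483).

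The tested gene whose level over the 18 arrays was most like that of Ptx3 was Il1rn, and the reverse held too (Pearson r = 0.955, and 0.955 over the 17 arrays without the 10 h array of knock-out embryo 1). Next for Ptx3 came Gstm1 (r = 0.948), a glutathione transferase, and Tmem9 (r = 0.948), a membrane protein. Over the 17 arrays these had 0.976 and 0.959, so that Il1rn no longer came first for Ptx3. With the group means removed Ptx3 and Il1rn correlated at 0.86 over 18 arrays and 0.77 over 17. Within the 10 h groups the cultures high in one were mostly high in the other, as the plot of Il1rn against Ptx3 shows.

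Il33 was lower at 10 h in both genotypes. In knock-out embryos 1, 2 and 3 it read 6.02, 4.82 and 5.94 untreated, 5.40, 4.86 and 5.90 at 1 h, and 4.65, 4.21 and 4.51 at 10 h. In wild-type embryos 1, 2 and 3 it read 5.39, 5.15 and 5.35 untreated, 5.56, 5.73 and 4.96 at 1 h, and 4.45, 4.13 and 4.14 at 10 h. The 10 h cultures did not overlap the untreated ones. At 10 h the values lay close to the 40th percentile of the array, 4.16 to 4.25.

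The 10 h difference of Il33 was -1.14 ± 0.30 in knock-out cells (2.20-fold lower, adjusted p = 0.00698) and -1.06 ± 0.30 in wild-type cells (2.08-fold lower, adjusted p = 0.01161). With any 1 embryo of its own genotype left out the difference lay between -1.40 and -0.99 in knock-out cells and between -1.12 and -0.99 in wild-type cells. The call was lost in every such wild-type case, with adjusted p of 0.05385, 0.05688 and 0.07164, and without knock-out embryo 1 (adjusted p = 0.06154) and knock-out embryo 3 (adjusted p = 0.05324).

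Olr1 had the largest change of the 7 tested members and was called whichever embryo was left out. In knock-out embryos 1, 2 and 3 it read 4.04, 3.98 and 4.12 untreated, 4.36, 4.29 and 4.31 at 1 h, and 8.74, 7.75 and 8.17 at 10 h. In wild-type embryos 1, 2 and 3 it read 3.55, 4.30 and 4.01 untreated, 4.10, 4.69 and 3.87 at 1 h, and 8.25, 6.57 and 7.10 at 10 h. Every 10 h culture lay far above every other culture. Untreated values lay at or below the 40th percentile of the array in all but 1 culture, so folds are measured from a level near background.

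The 10 h difference of Olr1 was 4.17 ± 0.34 in knock-out cells (18.1-fold, adjusted p = 2.62e-07) and 3.35 ± 0.34 in wild-type cells (10.2-fold). In single embryos it ran from 13.6-fold to 26.0-fold in knock-out and from 4.82-fold to 26.0-fold in wild type. Without the 10 h array of knock-out embryo 1 the knock-out difference was 3.91 ± 0.36. The genes most like Olr1 over the 18 arrays were Gk5 (r = 0.980), Osgin2 (r = 0.974) and Tubb6 (r = 0.973).

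**Figure D3:**
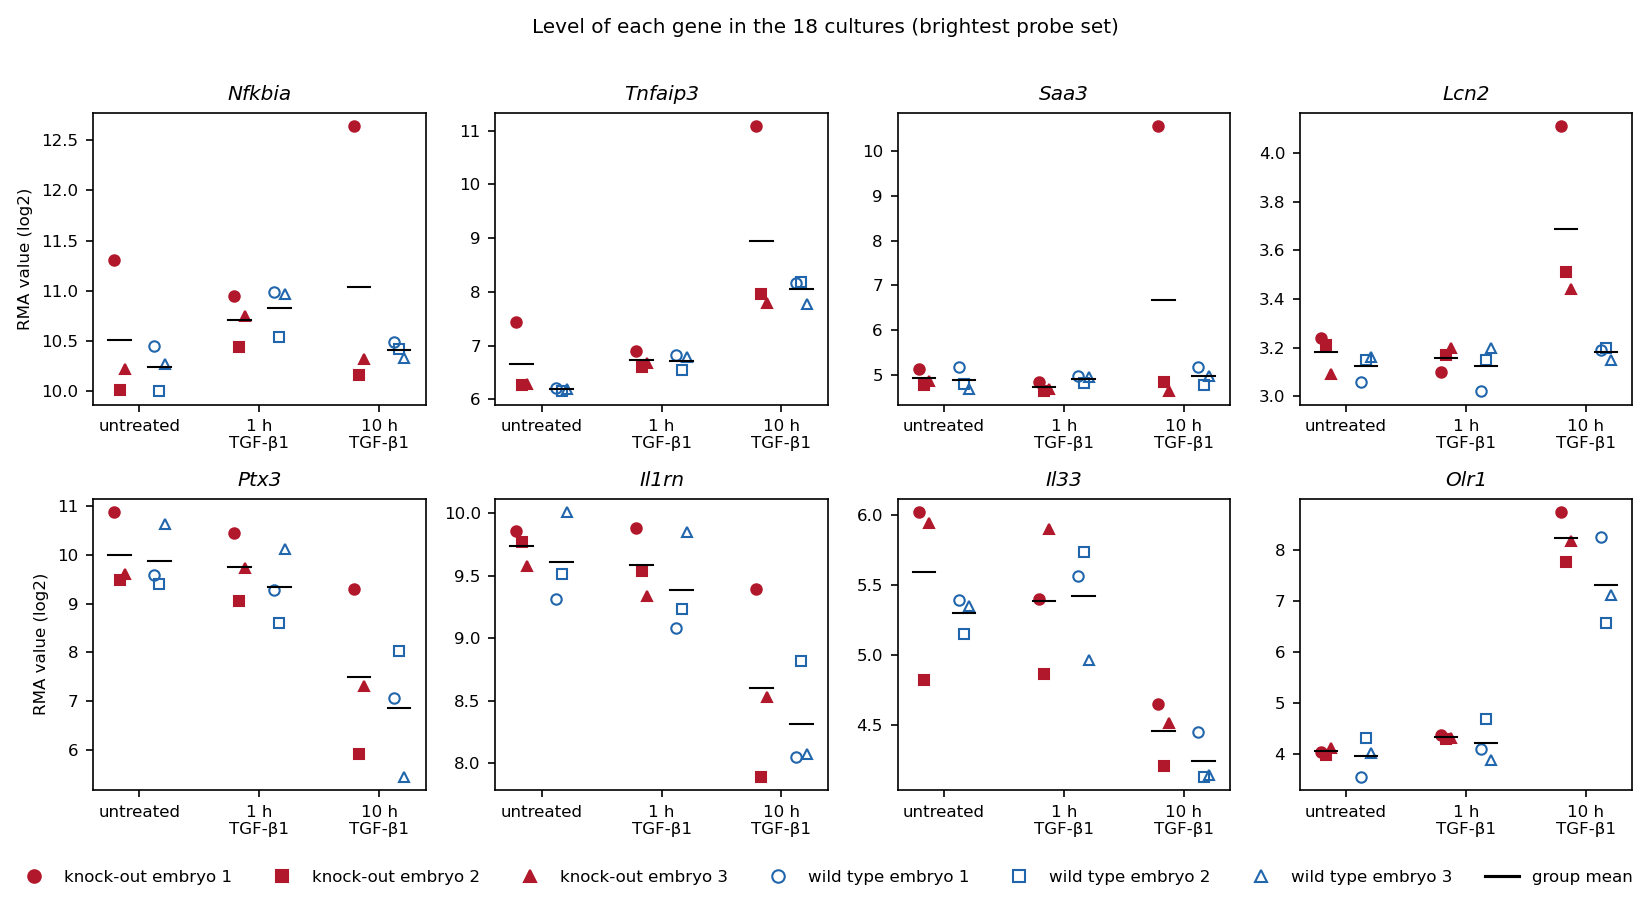
Level of each of the 8 genes in the 18 cultures (vertical axis, RMA value on the log2 scale; the axes differ between panels), by treatment time. Filled red marks are knock-out cultures and open blue marks wild-type cultures, shapes mark embryos and lines are group means. Olr1 and Tnfaip3 are higher and Ptx3, Il1rn and Il33 lower at 10 h, and knock-out embryo 1 lies alone in Saa3 at 10.55.

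Counted together, 5 of the 7 tested members passed at 10 h in each genotype: Tnfaip3 and Olr1 rose, and Ptx3, Il1rn and Il33 fell. Of all tested genes, 34.7% passed in knock-out cells, 13.9% higher and 20.7% lower. In wild-type cells 33.7% passed, 14.9% higher and 18.8% lower. The members' share lies above both backgrounds, but the members were picked with earlier results of these data known, and the time comparisons of a genotype share their untreated arrays. The same 5 were called in knock-out cells without the 10 h array of knock-out embryo 1, and all but Il33 without all cultures of that embryo. At 1 h none of the 7 passed in either genotype, where 0.49% of all genes passed in knock-out cells and 0.585% in wild-type cells. None of the 7 had an unadjusted p under 0.05 either, which 3.74% of all genes had in knock-out cells and 6.87% in wild-type cells, so a count of 0 is near the background.

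**Figure D4:**
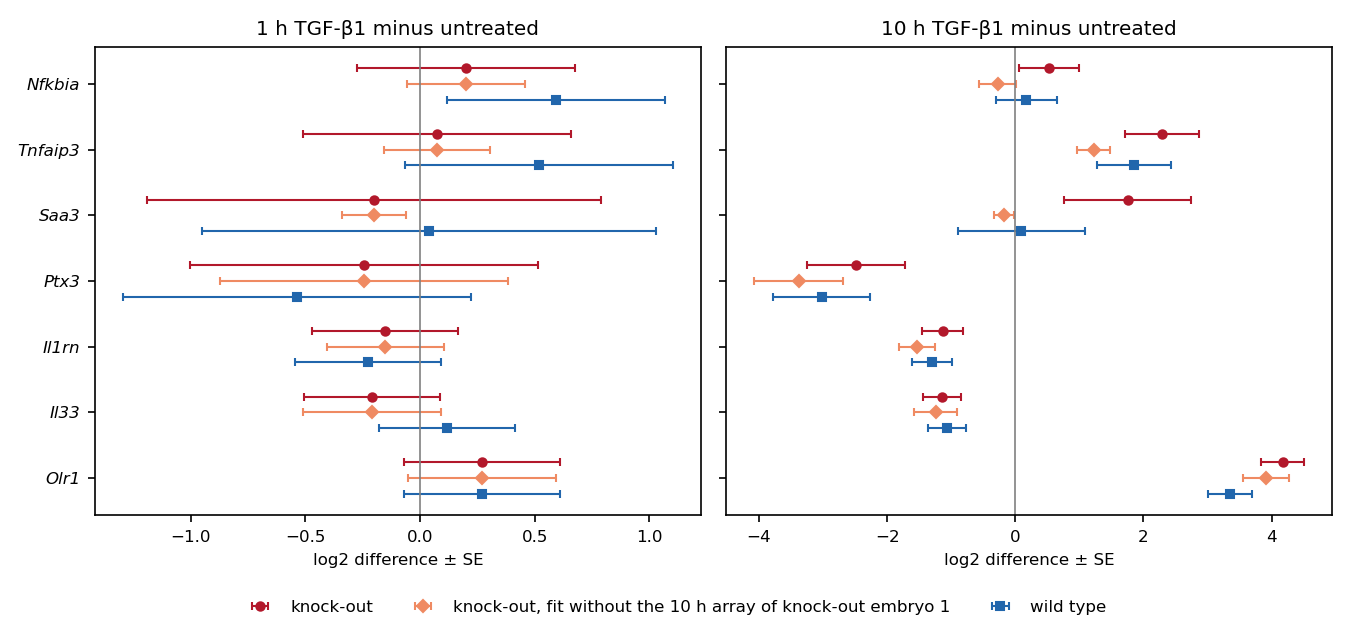
Differences from untreated cells (log2, points) with limma standard errors (bars) for the 7 tested members, at 1 h on the left and 10 h on the right. Red circles are knock-out cells, orange diamonds knock-out cells in the fit without the 10 h array of knock-out embryo 1 and blue squares wild-type cells. Without that array the 10 h difference in knock-out cells is -0.18 for Saa3, 1.23 for Tnfaip3 and 3.91 for Olr1.

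No member differed between knock-out and wild type past the threshold, and neither did any other gene: 0% of tested genes passed in untreated, 1 h or 10 h cells, in the embryo means over the 3 conditions or in the difference of the 1 h and 10 h responses. At an unadjusted p under 0.05 limma had 460 genes in untreated, 846 in 1 h and 721 in 10 h cells, 659 in the embryo means, and 233 and 305 in the differences of the 1 h and 10 h responses. Of the 7 tested members only Olr1 was among them. At 10 h Olr1 was 0.91 ± 0.34 higher in knock-out cells, with an adjusted p of 0.912 from limma. Its embryo means over the conditions were 0.37 ± 0.12 higher in knock-out, with an adjusted p of 0.9527 from limma. The Olr1 values of the genotypes overlapped at 10 h, and the difference was 0.65 ± 0.36 without the 10 h array of knock-out embryo 1. Lcn2 was not tested because it was dim. In the limma fit without the filter on dim genes its unadjusted p was 0.001152 at 10 h (adjusted p = 0.6078). It was 0.02382 for the difference of the 10 h response and 0.03438 in the embryo means, and neither passed after adjustment.

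The intervals of the genotype differences were wide. At 10 h the knock-out minus wild-type difference of Saa3 was 1.70 (95% interval -0.40 to 3.80), that of Tnfaip3 0.90 (-0.34 to 2.14), that of Ptx3 0.65 (-0.96 to 2.27) and that of Nfkbia 0.63 (-0.38 to 1.63). Without that array of knock-out embryo 1 all 4 were below 0, at -0.23 for Saa3, -0.16 for Tnfaip3, -0.24 for Ptx3 and -0.17 for Nfkbia. The differences of Il1rn and Il33 were 0.29 (-0.39 to 0.97) and 0.22 (-0.41 to 0.84), or -0.11 and 0.12 without that array.

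Other genes of the same pathways were read from lists, by count. At 1 h 2 of 21 NF-κB target genes passed in each genotype, Ier3, an early-response survival gene, and Pim1, a kinase. Ier3 rose by 1.78 in knock-out cells and by 2.36 in wild-type cells, and Pim1 by 1.15 and 1.20 in the same order. Of 18 NF-κB subunits, inhibitors and kinases, Map3k14, the kinase of the alternative NF-κB pathway, had 0.40 in knock-out cells without passing (adjusted p = 0.225) and rose by 0.70 in wild-type cells. No gene of the other lists passed at 1 h. Of all tested genes 0.49% passed at 1 h in knock-out cells and 0.585% in wild-type cells. The lists were chosen with earlier results of these data known, and counts this small are coarse beside these shares.

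At 10 h the count of NF-κB target genes depended on knock-out embryo 1. In knock-out cells 5 of 21 were higher and 0 lower, with a median difference of 0.62. Without the 10 h array of that embryo 4 were higher and 5 lower, with a median of -0.05, and without all of its cultures 4 were higher and 4 lower, with a median of 0.00. In wild-type cells 5 were higher and 4 lower, with a median of 0.06. Medians over all tested genes were -0.03 in knock-out cells, with and without that array, and 0.01 in wild-type cells. Of all tested genes 13.9% were higher and 20.7% lower in knock-out cells, and 14.9% and 18.8% in wild-type cells. The share called in knock-out cells was 30.2% without that array and 23.9% without all cultures of the embryo. Slc39a14 (a zinc and iron transporter), Csf1 (macrophage colony-stimulating factor), Ier3 and Pim1 rose in both genotypes, Csf1 by 1.74 in knock-out and 1.15 in wild type, and Slc39a14 by 1.08 and 0.85 in that order. Without that array, the adhesion gene Vcam1 (-1.07), the interferon-responsive genes Gbp2 (-1.29) and Irf1 (-0.73), the mitochondrial superoxide dismutase gene Sod2 (-0.43) and Tnfaip8 (-0.68) were the 5 that fell in knock-out cells. With it they had differences of -0.26, -0.46, -0.44, 0.01 and -0.47 and did not pass. Without all cultures of the embryo, Vcam1 missed the threshold (-0.95, adjusted p = 0.1253) and the other four of them passed.

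Among 18 NF-κB subunits, inhibitors and kinases, 5 were higher and 2 lower in knock-out cells at 10 h, or 3 and 4 without that array and 2 and 2 without all cultures of the embryo. In wild-type cells 1 was higher and 1 lower. Against the 34.7% and 33.7% of all tested genes called in knock-out and wild-type cells, the 7 of 18 in knock-out cells lie near the background and the 2 of 18 in wild-type cells below it. Of all tested genes, 30.2% were called in knock-out cells without the 10 h array of knock-out embryo 1. Without all cultures of that embryo the share was 23.9%. Ikbkg, the regulatory subunit of the IκB kinase, fell by 0.60 in knock-out cells and by 0.59 in wild-type cells, and Nfkbib, which encodes the inhibitor IκBβ, rose by 0.68 and 0.49. Traf2, an adaptor of TNF receptors, and Map3k14 rose in knock-out cells, by 0.58 and 0.38. In wild-type cells they had 0.31 and 0.28 without passing (adjusted p = 0.0853 and 0.053).

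Of 22 genes of IL-1, TNF and Toll-like receptor signalling, 3 were higher and 4 lower at 10 h in knock-out cells, and 2 higher and 5 lower in wild-type cells. In each genotype 7 of 22 were called, a share near that of all tested genes. The cytokine gene Il18 fell by 1.73 in knock-out cells and by 1.30 in wild-type cells, and Tnfrsf1a, the main TNF receptor gene, by 0.54 and 0.42. Il1rap, the shared accessory chain of the IL-1 and IL-33 receptors, rose by 0.80 and 0.50. Il1r1, the IL-1 receptor that Il1rn's product blocks, fell by 0.87 in wild-type cells and had -0.36 in knock-out cells (adjusted p = 0.121).

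Of 21 tested acute-phase and complement genes, 1 was higher and 1 lower in knock-out cells at 10 h, and 2 were higher and 1 lower in wild-type cells, shares below those of all tested genes. Il6st, the signalling chain gp130 of the IL-6 receptor, fell by 1.79 in knock-out cells and by 2.04 in wild-type cells. Cebpb, a transcription factor of acute-phase genes, rose by 0.99 and 0.84 in that order. Hpx, the haem scavenger haemopexin, rose by 0.41 in wild-type cells and had -0.06 in knock-out cells (adjusted p = 0.762). Socs3, a feedback inhibitor of cytokine signalling, had -1.13 in knock-out cells (adjusted p = 0.1085) and fell by 2.05 in the fit without the 10 h array of knock-out embryo 1, which made 2 lower in that fit.

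Of 10 scavenger receptors and pentraxin partners, 2 were higher and 2 lower in knock-out cells, and 2 higher and 4 lower in wild-type cells. Of all tested genes 34.7% were called in knock-out cells and 33.7% in wild-type cells, and counts out of 10 are coarse beside these shares. Ptx3 protein works with hyaluronan and with TSG-6 in the extracellular matrix, and the genes of both partners rose while Ptx3 fell: Has2, a hyaluronan synthase, by 3.53 in knock-out cells and 3.14 in wild-type cells, and Tnfaip6, which encodes TSG-6, by 1.23 and 1.06. The scavenger receptors Scara3 and Scara5 fell, Scara3 by 1.35 in knock-out and 1.50 in wild type, and Scara5 by 2.00 and 2.09. Without all cultures of knock-out embryo 1, 2 were higher and 1 lower in knock-out cells. Scara3 still passed in that limma fit (adjusted p = 0.003855), and the knock-out call of Scara5 was lost.

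The most similar genes of Saa3 depended on the culture that stood apart, those of Nfkbia and Tnfaip3 less so, and those of Il33 and Il1rn hardly. For Saa3 they were Ccl5, Acod1 and Il1b at r of 0.990, 0.990 and 0.988 over 18 arrays, but 0.371, 0.419 and 0.252 without it. For Tnfaip3 they were Ccl20, Pdgfb and Gpr84 at 0.962, 0.960 and 0.949, and 0.888, 0.905 and 0.852 without it. For Nfkbia they were Icam1, Cxcl10 and Tnf at 0.929, 0.882 and 0.867, and 0.788, 0.671 and 0.519 without it. For Il33 they were Sik2, Depdc1a and Spag5 at 0.924, 0.917 and 0.917, and 0.935, 0.918 and 0.937 without it. For Il1rn, after Ptx3, came Pcdhb17 at 0.949 and Cyp7b1 at 0.937, and 0.950 and 0.937 without it.

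Group-centred levels were also set beside the marker means, as a description. Over the 17 arrays without that culture Saa3 correlated with the macrophage marker mean at 0.84, with the mast cell mean at -0.74 and with the epithelial mean at -0.70. The mast cell and epithelial lists were near background. Over the 18 arrays the value with the macrophage mean was 0.40. Nfkbia correlated with the macrophage mean at 0.68 over the 17 arrays, and Ptx3 with the endothelial mean, also near background, at -0.73. The level of Saa3 over those 17 arrays was 4.64 to 5.18. At 10 h 0 of 18 macrophage markers passed in knock-out cells and 1 in wild-type cells, Mrc1, a mannose receptor, by -2.15. The part of macrophages in these values was not tested.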

How the data were processed

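Per the submitters' processing notes, the authors used RMA to make the deposited log2 values from Affymetrix arrays, with a version not given in the sources used here. The values were kept as deposited. Of 45101 probe sets 34958 carried 1 symbol in the annotation table, 932 several and 9211 none. Each gene was represented by its brightest probe set, and 13679 genes above the 40th percentile on at least 3 arrays were tested.

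limma 3.58.1 (R 4.3.3) fitted 6 group means over 18 arrays with 12 residual degrees of freedom, and the Benjamini-Hochberg adjustment ran over all tested genes (two-sided tests, threshold 0.05). The number of arrays, 3 per group, limits the precision. Same-numbered arrays of a genotype come from 1 embryo per the labels, so embryo pairs them. Deviations of untreated and 1 h arrays of an embryo correlated at 0.592 to 0.763 over genes. Genotypes were also compared on embryo means. The fit was tested on simulated data.

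Members, lists and alternatives were chosen with earlier results of these data known. Named genes are all members, up to 4 genes per list with the smallest adjusted p at 10 h in either genotype, every list gene that passed elsewhere, and the 3 genes most like each tested member. Other genes are marked as chosen after their values were seen; the genes named from the fit without the 10 h array of knock-out embryo 1 are also of that kind. Motifs were searched in RefSeq promoters (GRCm38.p6).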

Additional observations from a re-analysis of the deposited data

How the results depend on the processing

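Over 18 alternatives the differences of the 7 tested members kept their sign wherever they were called, and 17 values lost their call. At 10 h, 5 members were called in each genotype. With 1 embryo left out it was 2 to 5 in knock-out cells and 1 to 5 in wild-type cells. No fit that left out an embryo of the same genotype kept all 5. In knock-out cells 2 higher and 2 lower members were called without knock-out embryo 1. There were 3 without knock-out embryo 2 and 2 without knock-out embryo 3. In wild-type cells there were 3, 3 and 1 without wild-type embryo 1, 2 and 3. With only the arrays of the comparison, 3 were called in knock-out cells, where Ptx3 (adjusted p = 0.05127) and Tnfaip3 (adjusted p = 0.07817) missed the threshold. The wild-type Tnfaip3 result missed the threshold with embryo 1, 2 or 3 of that genotype left out (adjusted p = 0.1135, 0.1282 and 0.08815). The cause was not tested. The fits without the 10 h array of knock-out embryo 1 and without that of wild-type embryo 2 were chosen after seeing the data. With embryo as a replicate block no member call changed: Tnfaip3 at 10 h had adjusted p of 0.0008154 in knock-out cells and 0.003647 in wild-type cells. For wild-type embryos 2 and 3 at 10 h the pairing in this fit rests on the labels alone. That paired fit called 101 genes at 1 h in knock-out cells, against 67. Counts of genes at 1 h were 39 in knock-out and 47 in wild type with only the arrays of the comparison, and 26 to 68 and 38 to 76 with 1 embryo left out, against 67 and 80. Between genotypes, 1 gene at 1 h and 6 at 10 h were called with the replicate number as a block, and 1 at 10 h without knock-out embryo 2, against 0. Groups of 3 cultures limit what could be detected in members that vary this much, and Lcn2 and low Olr1 and Il33 values lie near background.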
